A study of Mus musculus with 7 samples.

Results

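The 10 genes described here encode the proteins that carry iron into and out of a cell, and all of them have a row among the 26130 gene symbols of the count table. They were taken by symbol: the transferrin cycle (Trf, Tfrc, Steap3), the divalent metal transporters (Slc11a1, Slc11a2, Slc39a14, Slc39a8), a second ferrireductase (Steap4), and the exporter ferroportin (Slc40a1) with its partner oxidase ceruloplasmin (Cp). All 10 passed the filter on low counts, which kept 13665 genes. Some of them still had very few counts in single libraries, and these are named where they matter.

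The RNA came from mouse lung cells sorted as GFP-positive, CD11b-positive, Ly6C-positive and Ly6G-negative, a gate for monocytes and cells derived from them. Every mouse was a cross of an mScarlet reporter of Fth1, the ferritin heavy chain, with a GFP reporter of Lyz2, the lysozyme of myeloid cells. The groups were Fth1-low cells of untreated mice (2 libraries), Fth1-low cells of mice that had received 20 µg of E. coli lipopolysaccharide (LPS, an endotoxin of the outer bacterial membrane) in a 50 µl volume by way of the trachea 3 days earlier (2 libraries), and Fth1-high cells of mice given the same LPS (3 libraries). The labels give no strain, age or sex, and do not say whether a library is 1 mouse or a pool. P-values therefore measure only the spread between these libraries, which may be technical. No untreated Fth1-high library is analysed here, so a difference between LPS Fth1-high and untreated Fth1-low cells joins treatment and gate, which cannot be told apart. Since RNA was extracted from sorted populations, fewer cells of a type and less RNA per cell cannot be told apart either.

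Total counts ranged from 10459703 to 27997007 in 6 libraries and were 637787 in LPS Fth1-low replicate 1. Counts scaled to a library total of 1e+06 are written CPM, and a single count stood for 1.67 CPM in that library and for 0.0353 to 0.0932 CPM in the others. Ribosomal RNA took 19.5% of its counts, against 0.706% to 8.43% elsewhere. Transcripts of the sorted proteins (Lyz2, Itgam, Ly6c1, Ly6c2) and the monocyte genes Csf1r and Ccr2 were detected in all 7 libraries, while Ly6g never exceeded 2 counts. Ccr2, the receptor of inflammatory monocytes, was 5.42-fold lower in LPS Fth1-high than in LPS Fth1-low cells (adjusted p = 0.0057) and 5.85-fold lower than in untreated cells (adjusted p = 0.0014). Ly6c1 and Ly6c2 were instead 4.32-fold and 3.43-fold higher in LPS Fth1-high than in untreated cells (adjusted p = 0.0067 and 0.0039). Between the LPS gates neither was called (adjusted p = 0.17 and 0.093). Lyz2, Itgam and Csf1r were called in neither comparison. Fth1 itself averaged 1729, 3898 and 18234 CPM in untreated Fth1-low, LPS Fth1-low and LPS Fth1-high cells.

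Most circulating iron travels bound to transferrin, which enters cells with the transferrin receptor. In the acidic endosome the iron is released, reduced by a STEAP ferrireductase and passed to the cytosol by a divalent metal transporter. Ferroportin is the only known exporter of ionic iron in mammals, and ceruloplasmin oxidises the exported iron so that transferrin can bind it. In macrophages this traffic is known for the recycling of iron from red cells and for the withholding of iron from microbes during infection. Iron regulatory proteins tune several of these messages by binding a hairpin, the iron responsive element. Binding in a 3′ untranslated region protects the message, and binding in a 5′ untranslated region blocks its translation.

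The hairpin is shown because it sits at opposite ends of the uptake and the export message. A search of GENCODE vM21 transcripts (GRCm38) for a bulged C, 5 paired bases, the loop CAGTGN and 5 complementary bases (G-T pairs allowed) found it in 2 of the 10 genes, and in 1.34% of 21877 protein-coding genes. Tfrc had 4 matches, all in the 3′ untranslated region of 1 of 3 coding transcripts, and Slc40a1 had 1, in the 5′ untranslated region of 1 of 4. Fth1, whose reporter set the gate, had 1 in its 5′ untranslated region. The loop is in capitals and each line runs 5′ to 3′ on the transcript.
Tfrc, chr16:32631225-32631241: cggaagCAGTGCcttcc
Tfrc, chr16:32631604-32631620: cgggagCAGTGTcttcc
Tfrc, chr16:32631669-32631685: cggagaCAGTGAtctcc
Tfrc, chr16:32631716-32631732: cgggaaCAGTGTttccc
Slc40a1, chr1:45925471-45925487 (minus strand): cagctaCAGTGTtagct
Fth1, chr19:9982738-9982754: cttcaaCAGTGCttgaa
No match in the other 8 genes says only that these letters, in this arrangement, are not in their annotated protein-coding transcripts. Hairpins with other pairing or another loop were not searched for, so these genes may still carry an element. The counts are summed per gene, so transcripts with and without the hairpin are not separated. RNA levels do not show the translation that the 5′ hairpin governs.

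Of the 10 transcripts, 6 differed between LPS Fth1-high and untreated Fth1-low cells. Tfrc, Slc11a1, Slc11a2, Slc39a14 and Cp were higher in the LPS Fth1-high cells and Trf was lower. Between the LPS gates, Slc11a1 and Slc11a2 were higher and Steap4 lower in Fth1-high cells. Within the Fth1-low gate, Slc39a14 and Steap4 were higher after LPS. Calls are genes with an adjusted p (Benjamini-Hochberg over all 13665 genes, edgeR's quasi-likelihood test) below 0.05. Among all genes tested, 24.3% were called for LPS Fth1-high against untreated, 8.25% between the LPS gates and 3.62% within the Fth1-low gate. Against these shares stand 6, 3 and 2 of the 10 genes. By direction, 5 of 10 were higher and 1 lower in LPS Fth1-high than in untreated cells, where 12.4% and 11.9% of all genes were. Between the LPS gates 2 were higher and 1 lower, beside 3.68% and 4.57% of all genes, and within the Fth1-low gate 2 were higher after LPS and none lower, beside 2.99% and 0.629%. The libraries of the groups did not overlap for 8, 6 and 6 of the 10 genes in these 3 comparisons, and for 58.1%, 41.3% and 39.5% of all genes tested. The median log2 difference of the 10 was 0.99, -0.09 and 0.50 in the same order, beside 0.03, 0.04 and -0.05 for all genes tested. The 3 comparisons share their groups in pairs, so their values are not independent of each other.

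**Figure D1:**
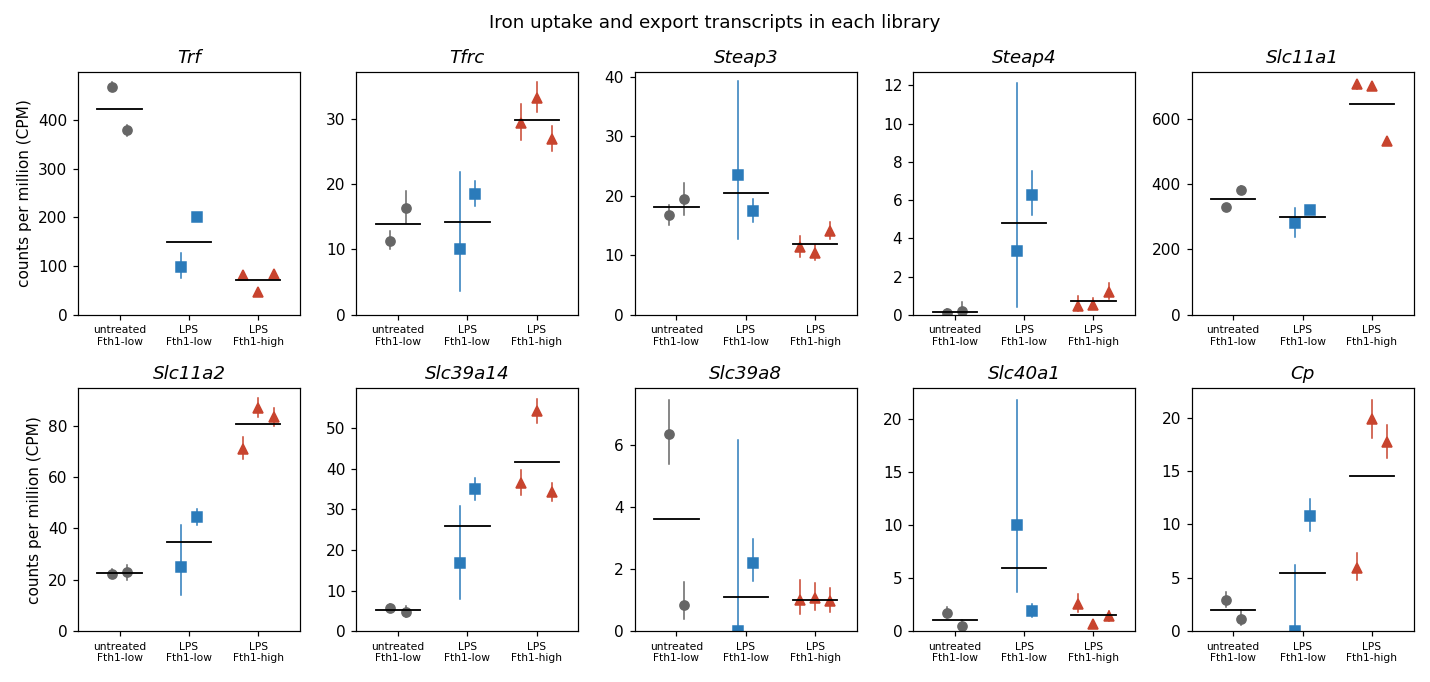
CPM of each of the 10 iron transport genes (vertical axis, from 0, a scale of its own per panel) in the 7 libraries. Points are libraries, thin vertical lines are exact 95% Poisson intervals that cover counting error only, and black bars are group means. Slc11a1 reached 532 to 705 CPM in the 3 LPS Fth1-high libraries against 280 to 381 CPM in the other 4, and the low genes have their widest intervals in LPS Fth1-low replicate 1.

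Across genes, levels were compared as CPM per kilobase of annotated exon. Slc11a1 and Trf were the 2 highest in every group, with a wide gap to the third in the Fth1-low groups and a narrow one in LPS Fth1-high cells. In untreated cells Trf (127 ± 19.1 CPM per kilobase, SD, n = 2) lay above Slc11a1 (95.8 ± 9.82), without overlap of their libraries. Slc11a2, Steap3 and Tfrc followed at 3.55, 3.16 and 2.23 CPM per kilobase. The lowest 5 were Slc39a14, Slc39a8, Cp, Slc40a1 and Steap4, from 0.489 down to 0.0427 CPM per kilobase, and the libraries of each neighbouring pair among these 5 overlapped. In LPS Fth1-low cells Slc11a1 came first with 80.8 ± 7.57 CPM per kilobase and Trf second with 45.2 ± 21.8. These 2 did not overlap, whereas every neighbouring pair from Slc11a2 (5.47 ± 2.14) and Steap3 (3.58 ± 0.736) downwards did. In LPS Fth1-high cells the order was Slc11a1 (174 ± 26.5, n = 3), Trf (21.2 ± 6.38), Slc11a2 (12.7 ± 1.31), Tfrc (4.82 ± 0.513) and Slc39a14 (3.95 ± 1.04), the last 2 with overlapping libraries. Steap3 and Cp overlapped below them, at 2.09 and 1.51, and at the bottom Slc40a1 (0.171) overlapped both Steap4 (0.228) and Slc39a8 (0.131 CPM per kilobase), which did not overlap each other.

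**Figure D2:**
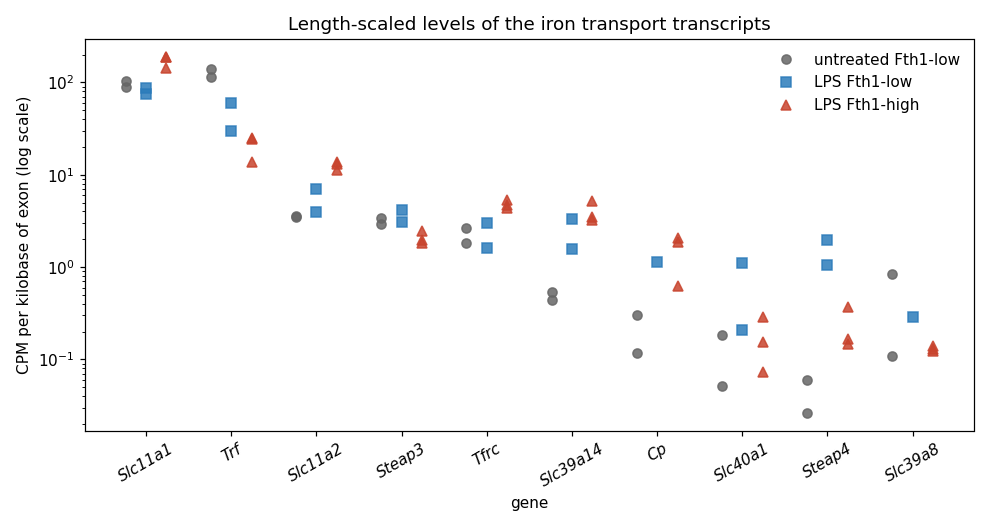
CPM per kilobase of exon (vertical axis, log scale) for the 10 genes, with 1 point per library and the groups side by side. Slc11a1 and Trf lie highest in every group, and Trf descends from 114 to 141 in untreated cells to 13.9 to 25.2 in LPS Fth1-high cells. The zero counts of Cp and Slc39a8 in LPS Fth1-low replicate 1 cannot be drawn on this axis.

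Trf encodes transferrin, the iron carrier of blood plasma that is made mainly by the liver and also by other tissues (chromosome 9, 103204001 to 103230444 in mm10, minus strand). Its transcript stood at 468 and 378 CPM in untreated cells, 98.8 and 201 CPM in LPS Fth1-low cells, and 81.7, 46.0 and 83.7 CPM in LPS Fth1-high cells. No library of one group overlapped another group, and the levels stepped down from untreated through LPS Fth1-low to LPS Fth1-high. LPS Fth1-high cells had 6.01-fold less than untreated cells (log2 difference -2.59 ± 0.34, SE, adjusted p = 4.8e-04), a call that held under all 18 alternatives.

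The intermediate steps of Trf were less firm. LPS Fth1-low cells differed from untreated cells by -1.45 ± 0.38 (adjusted p = 0.084), and LPS Fth1-high from LPS Fth1-low cells by -1.14 ± 0.34 (adjusted p = 0.074), neither of them called. DESeq2 called both (adjusted p = 0.0014 and 0.0056), as did edgeR with no filter on low counts (0.044 and 0.048). Of the 18 alternatives, 5 called the first of these differences and 6 the second. Without LPS Fth1-low replicate 1 the difference between the LPS gates was -1.53 and was called (adjusted p = 0.041), and without its replicate 2 it was -0.48. The first step was called without LPS Fth1-high replicate 2 (adjusted p = 0.045). Trf overlaps Gm20425 on the same strand, so reads of these genes may be shared. Of 8338 other genes averaging 10 CPM or more, those whose log2 profile over the 7 libraries lay nearest to Trf were Fut4, a fucosyltransferase, and Cx3cr1, the fractalkine receptor of monocytes, with root mean square differences of 0.21 and 0.23.

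Tfrc encodes the transferrin receptor, which brings transferrin-bound iron into the cell (chromosome 16, 32608920 to 32632794, plus strand). It was at 11.3 and 16.3 CPM in untreated cells, 10.0 and 18.5 CPM in LPS Fth1-low cells, and 29.4, 33.2 and 26.9 CPM in LPS Fth1-high cells. The 3 Fth1-high libraries lay above the 4 others, and the Fth1-low groups overlapped. The 10.0 CPM of LPS Fth1-low replicate 1 rested on 6 counts, with a 95% Poisson interval of 3.69 to 21.9 CPM.

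Tfrc was 2.17-fold higher in LPS Fth1-high than in untreated cells (1.12 ± 0.26, adjusted p = 0.012). That call was lost without untreated replicate 1 (0.87, adjusted p = 0.13) and with libraries thinned to the depth of the shallowest (0.21, adjusted p = 0.77). Between the LPS gates it differed by 0.88 ± 0.28 (95% interval 0.24 to 1.51, adjusted p = 0.099), and within the Fth1-low gate by 0.24 ± 0.30 (adjusted p = 0.82). The genes nearest to it in profile were Chpt1, a phosphatidylcholine-synthesis enzyme, and Fam126b, both at 0.12. Tfrc is known to be high in dividing cells. The 6 markers of dividing cells summed to 19.4 and 20.2 CPM in untreated, 70.3 and 50.5 CPM in LPS Fth1-low, and 96.8, 159 and 112 CPM in LPS Fth1-high cells. After LPS most of each sum was Mki67, the only one of the 6 that was called, at means of 11.1, 40.4 and 103.9 CPM in that order, and between the LPS gates Top2a and Birc5 differed by -0.06 and -0.10. All 6 were detected in every library but LPS Fth1-low replicate 1, where Cdk1 and Tyms had no count, and their part in the Tfrc difference was not tested.

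The promoter of Tfrc is shown because the receptor is a textbook target of the hypoxia-inducible factor. The transcript of its subunit Hif1a was called higher in LPS Fth1-high than in untreated cells, as Tfrc was. Hif1a was also called higher within the Fth1-low gate (1.53, adjusted p = 0.018), where Tfrc was not (0.24, adjusted p = 0.82). The part of this factor in the Tfrc values was not tested. The sequence is that of RefSeq (GRCm38.p6), from 250 bases before to 50 bases after a transcript start, 5′ to 3′, with the core of the hypoxia response element, ACGTG on either strand, in capitals.
Tfrc promoter, chr16:32608646-32608945: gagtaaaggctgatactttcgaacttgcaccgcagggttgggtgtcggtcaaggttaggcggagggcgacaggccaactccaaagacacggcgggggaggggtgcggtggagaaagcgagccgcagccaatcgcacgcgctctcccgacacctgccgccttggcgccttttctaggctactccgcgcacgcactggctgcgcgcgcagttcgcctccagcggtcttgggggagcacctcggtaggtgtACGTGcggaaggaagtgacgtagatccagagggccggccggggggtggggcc
It held 1 match, overlapping this RefSeq start, which lies upstream of the GENCODE start given above. Another Tfrc promoter of the collection (chr16:32608872-32609171), not shown, held the same match at -228 from its own start. The same letters occurred in 19.6% of 32841 promoters of this length, and a match is a description of the letters, not of binding. Of the 10 genes, 6 had promoters in this collection.

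Steap3 encodes the endosomal ferrireductase that prepares transferrin-derived iron for transport (chromosome 1, 120190757 to 120272705, minus strand). It lay at 16.7 and 19.4 CPM in untreated cells, 23.4 and 17.5 CPM in LPS Fth1-low cells, and 11.3, 10.4 and 14.1 CPM in LPS Fth1-high cells. All 3 Fth1-high libraries were below the 4 Fth1-low libraries, but no difference was called. It was -0.70 ± 0.26 between the LPS gates (95% interval -1.27 to -0.12, adjusted p = 0.15) and -0.59 ± 0.23 between LPS Fth1-high and untreated cells (95% interval -1.11 to -0.08, adjusted p = 0.092). Within the Fth1-low gate it was 0.10 (95% interval -0.52 to 0.73).

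Of the 4 divalent metal transporters, 3 were called in at least 1 comparison and Slc39a8 in none. Slc11a1 encodes NRAMP1, which moves iron and manganese across the phagosome membrane of macrophages (chromosome 1, 74375195 to 74386062, plus strand). It was the most abundant transcript of the 10 per length after LPS. It reached 329 and 381 CPM in untreated cells, 280 and 319 CPM in LPS Fth1-low cells, and 705, 698 and 532 CPM in LPS Fth1-high cells. The 3 Fth1-high libraries stood above all others, and the Fth1-low libraries after LPS lay just below the untreated ones.

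Slc11a1 stood 2.15-fold above its LPS Fth1-low level in LPS Fth1-high cells (1.10 ± 0.22, adjusted p = 0.016) and 1.82-fold above its untreated level (0.86 ± 0.22, adjusted p = 0.018). LPS Fth1-low and untreated cells differed by -0.24 ± 0.24 (95% interval -0.77 to 0.29, adjusted p = 0.76). The call between the LPS gates did not hold without LPS Fth1-low replicate 1 (0.99, adjusted p = 0.068) or LPS Fth1-high replicate 2 (1.02, 0.066). The call against untreated cells was lost without untreated replicate 1 or 2 (adjusted p = 0.16 and 0.080) or LPS Fth1-high replicate 1 or 2 (0.050 and 0.073), at log2 differences of 0.76 to 0.98. The nearest profiles were those of Med23, a Mediator subunit, and Micall1, an endocytic recycling protein, at 0.11 and 0.12.

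Slc11a2 encodes DMT1, the relative of NRAMP1 that takes ferrous iron out of the endosome (chromosome 15, 100387898 to 100425072, minus strand). It was at 22.3 and 22.8 CPM in untreated cells, 25.1 and 44.4 CPM in LPS Fth1-low cells, and 71.1, 87.0 and 83.3 CPM in LPS Fth1-high cells. The groups did not overlap and were ordered that way, with the 25.1 CPM of LPS Fth1-low replicate 1 based on 15 counts. LPS Fth1-high cells had 3.56-fold more than untreated cells (1.83 ± 0.24, adjusted p = 4.6e-04), called under all 18 alternatives.

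Slc11a2 in LPS Fth1-high cells was also 2.12-fold above the LPS Fth1-low level (1.08 ± 0.24, adjusted p = 0.024). That call was lost without untreated replicate 2 (1.07, adjusted p = 0.053), LPS Fth1-low replicate 1 (0.84, 0.061), LPS Fth1-high replicate 2 (1.02, 0.085) or replicate 3 (1.07, 0.073). Within the Fth1-low gate the difference was 0.75 ± 0.26 (adjusted p = 0.21). Gm5475 overlaps Slc11a2 on the opposite strand, and reads of both may be counted together. The profile nearest to it, apart from the pseudogene Gapdh-ps15 at 0.08, was that of B4galt1, a galactosyltransferase, at 0.09.

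Slc39a14 encodes ZIP14, a transporter of zinc, manganese and iron not bound to transferrin, which inflammation is known to induce in the liver (chromosome 14, 70303469 to 70351425, minus strand). It was at 5.66 and 4.66 CPM in untreated cells, 16.7 and 35.0 CPM in LPS Fth1-low cells, and 36.5, 54.3 and 34.3 CPM in LPS Fth1-high cells. Every LPS library exceeded both untreated libraries, and the LPS gates overlapped. Compared with untreated cells it was higher by 3.00 ± 0.33 on the log2 scale in LPS Fth1-high cells (adjusted p = 1.8e-04) and by 2.49 ± 0.35, or 5.61-fold, in LPS Fth1-low cells (adjusted p = 0.0042).

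The Slc39a14 difference against untreated cells was called under all 18 alternatives for LPS Fth1-high cells. For LPS Fth1-low cells it was lost without untreated replicate 2 (2.39, adjusted p = 0.054) or LPS Fth1-low replicate 2 (1.66, adjusted p = 0.13), the latter leaving only the 10 counts of replicate 1 in that group. The LPS gates differed by 0.51 ± 0.31 (95% interval -0.19 to 1.21, adjusted p = 0.39). Shtn1, a neuronal migration protein, and P2ry13, a purine receptor, had the nearest profiles, at 0.14 and 0.20.

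Slc39a8 encodes ZIP8, the closest relative of ZIP14 (chromosome 3, 135825279 to 135888572, plus strand). It stood at 6.37 and 0.839 CPM in untreated cells, 0 and 2.21 CPM in LPS Fth1-low cells, and 0.995, 1.06 and 0.954 CPM in LPS Fth1-high cells. The groups overlapped, and untreated replicate 1 was above all others. A count of 0 in LPS Fth1-low replicate 1 allows up to 5.02 CPM, the value of 3 counts there. No difference was called (adjusted p = 0.12 to 0.74), and that between LPS Fth1-high and untreated cells was -1.87 ± 0.80, but 0.25 without untreated replicate 1, and -2.65 (adjusted p = 0.040) without replicate 2. In untreated replicate 1 the epithelial markers summed to 782 CPM, with all 8 detected and Sftpc, the surfactant protein of alveolar type 2 cells, at 494 CPM. The sum was 3.82 CPM in untreated replicate 2, where Foxj1 was at 0, 21.8 and 122.5 CPM in LPS Fth1-low, and 14.3 to 76.8 CPM in LPS Fth1-high cells. Their part in the Slc39a8 values was not tested. Annotated genes overlap Slc39a8 on both strands.

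**Figure D3:**
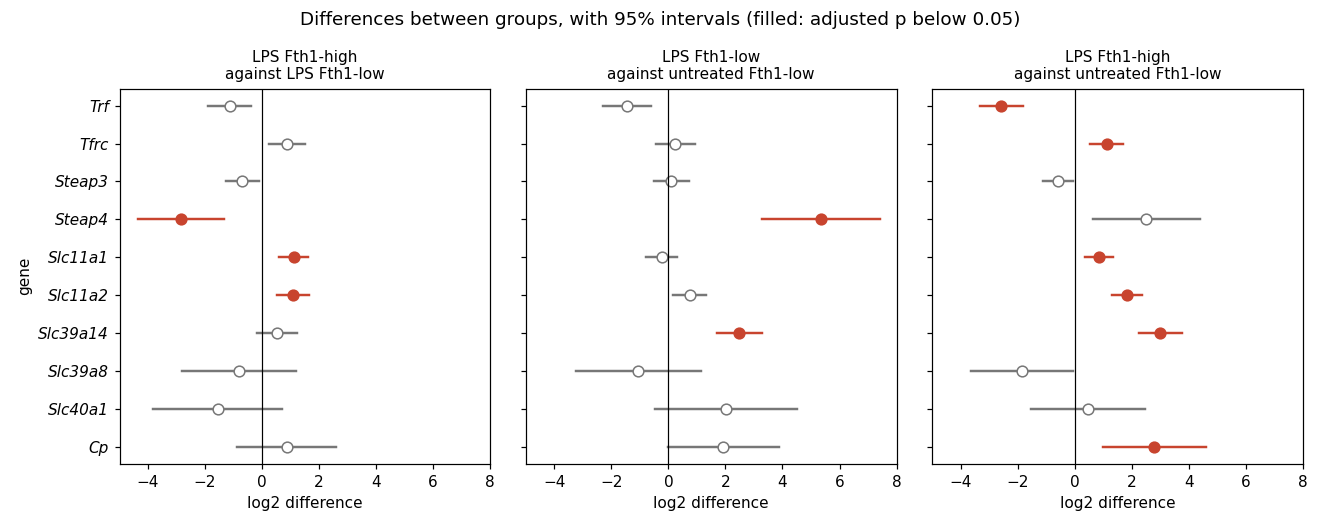
Log2 differences of the 10 genes (horizontal axis) in the 3 comparisons, with 95% intervals from edgeR's quasi-likelihood fit. Filled red points have an adjusted p below 0.05 over all genes tested, and open points do not. Slc11a1 and Slc11a2 differ by 1.10 and 1.08 between the LPS gates, Slc39a14 by 2.49 within the Fth1-low gate, and Trf by -2.59 between LPS Fth1-high and untreated cells.

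Steap4 encodes a metalloreductase of the plasma membrane and endosomes that inflammatory cytokines are known to induce in fat cells (chromosome 5, 7960457 to 7982213, plus strand). It was nearly absent from untreated cells, with 2 counts in each library, or 0.0833 and 0.186 CPM. LPS Fth1-low libraries had 3.35 CPM from 2 counts and 6.27 CPM from 122 counts, and LPS Fth1-high libraries had 0.464, 0.528 and 1.17 CPM from 7, 13 and 33 counts. No groups overlapped, and LPS Fth1-low was the highest, although the Poisson interval of its replicate 1 ran from 0.405 to 12.1 CPM.

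Summed over libraries, LPS Fth1-low cells had 124 counts of Steap4 against 4 in untreated cells, a ratio of 53.7 (95% interval 20.5 to 200.3, counting error only). LPS Fth1-high cells had 0.126 times the level of LPS Fth1-low cells (95% interval 0.0896 to 0.175). Both were called, with fitted differences of 5.35 ± 0.92 (adjusted p = 0.012) and -2.84 ± 0.67 (adjusted p = 0.030). LPS Fth1-high and untreated cells differed by 2.51 ± 0.84, not called (adjusted p = 0.056). The rise within the Fth1-low gate was not called without untreated replicate 1 or 2 (adjusted p = 0.13 and 0.071) or LPS Fth1-low replicate 2 (0.14). The difference between the LPS gates failed the threshold without LPS Fth1-low replicate 2 (-2.18, adjusted p = 0.36) or LPS Fth1-high replicate 1, 2 or 3 (0.071, 0.10 and 0.052). LPS Fth1-low replicate 2 thus held 122 of the 124 counts behind both calls.

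The nearest profiles to Steap4 were those of the cytokine genes Ccl4 and Tnf, at root mean square differences of 0.65 and 0.89. They were less close than the neighbours of any other called gene but Cp. With 2 counts in each untreated library and in LPS Fth1-low replicate 1, the Steap4 profile is poorly measured there. Neutrophil markers, 8 in all, summed to 157 and 331 CPM in LPS Fth1-low cells, 112 and 91.1 CPM in untreated and 61.4 to 136 CPM in LPS Fth1-high cells. Mmp8, S100a8 and S100a9 made up most of the LPS Fth1-low sums, at means of 128, 72.8 and 36.2 CPM. Their means, and those of Retnlg and Cxcr2, were highest in LPS Fth1-low cells. Means of Ly6g, Camp and Ngp were highest in untreated cells. Ly6g was at 0 in 3 libraries, and Camp, Ngp and Cxcr2 were at 0 in LPS Fth1-low replicate 1. The summed alveolar macrophage markers were also highest in LPS Fth1-low cells, at 3209 and 5823 CPM against 1447 and 1436 CPM in untreated and 485 to 1895 CPM in LPS Fth1-high cells. Chil3, which inflammatory monocytes also express, made up 3189 and 5805 CPM of it there, and Siglecf was at most 5.02 CPM in any library. The other 6 were not highest there: mean levels of Car4, Ear1 and Fabp1 were highest in untreated cells, and those of Marco, Atp6v0d2 and Krt79 in LPS Fth1-high cells. The part of these cells in the Steap4 values was not tested.

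The promoter of Steap4 is shown because the transcript was nearly absent before LPS. The sequence is again that of RefSeq (GRCm38.p6), with matches on either strand to a loose form of the NF-kB site (GGG, 5 bases of any kind, CC) in capitals.
Steap4 promoter, chr5:7960222-7960521: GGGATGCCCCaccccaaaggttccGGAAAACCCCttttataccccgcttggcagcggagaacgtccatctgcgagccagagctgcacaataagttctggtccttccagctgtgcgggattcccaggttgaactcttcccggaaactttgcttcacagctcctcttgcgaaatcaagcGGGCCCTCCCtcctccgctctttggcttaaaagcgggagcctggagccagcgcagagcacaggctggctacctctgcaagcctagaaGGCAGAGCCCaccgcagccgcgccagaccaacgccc
There were 4 matches, and 50.8% of all promoters of this length held at least 1. Matches were also found for TTNNGNAA, a form of the C/EBP site present in 40.7% of promoters, in 2 places, and for TGANNNNGC, the core of the antioxidant response element (41.3%), in 1. One C/EBP match overlapped an NF-kB match and the other overlapped the antioxidant match. No match was found for the interferon-stimulated response element (GAAA, 2 bases of any kind, GAAA; 3.44%), for ACGTG, or for TGCNCNC, the core of the metal response element (51.0%).

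Slc40a1, the ferroportin gene (chromosome 1, 45908068 to 45926523, minus strand), was scarce in every group. It was at 1.67 and 0.466 CPM in untreated cells, 10.0 and 1.85 CPM in LPS Fth1-low cells, and 2.59, 0.650 and 1.38 CPM in LPS Fth1-high cells. The single high value came from 6 counts in LPS Fth1-low replicate 1, with a 95% Poisson interval of 3.69 to 21.9 CPM, and the other 6 libraries lay between 0.466 and 2.59 CPM. No difference was called (adjusted p = 0.42, 0.50 and 0.74 between the LPS gates, within the Fth1-low gate and between LPS Fth1-high and untreated). The last was 0.46 with a 95% interval of -1.53 to 2.45. Differences inside that interval are compatible with these libraries, so the lack of a call does not show equal levels. Fibroblast markers, 5 in all, summed to 27.9 and 5.87 CPM in untreated and 127 and 19.7 CPM in LPS Fth1-low cells. In LPS Fth1-high cells they summed to 57.1, 7.23 and 24.2 CPM. The 127 CPM of LPS Fth1-low replicate 1 rested on 76 counts. The part of such cells in the Slc40a1 values was not tested.

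Cp encodes ceruloplasmin, the copper oxidase that works with ferroportin (chromosome 3, 19957054 to 20009145, plus strand). It was at 2.92 and 1.12 CPM in untreated cells, 0 and 10.8 CPM in LPS Fth1-low cells, and 5.91, 19.8 and 17.7 CPM in LPS Fth1-high cells. All Fth1-high libraries exceeded both untreated ones, and Fth1-high replicate 1 lay below LPS Fth1-low replicate 2. The 0 of LPS Fth1-low replicate 1 allows up to 5.02 CPM. LPS Fth1-high cells had 6.91-fold more than untreated cells (2.79 ± 0.79, adjusted p = 0.034).

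The Cp call was lost without untreated replicate 1 or 2 (adjusted p = 0.074 and 0.17), without LPS Fth1-high replicate 2 or 3 (0.086 and 0.099), with no filter on low counts (0.11) and at equal depth (0.14), at log2 differences of 2.33 to 3.69. The other comparisons of Cp were not called, at 0.86 ± 0.76 between the LPS gates (adjusted p = 0.58) and 1.93 ± 0.85 within the Fth1-low gate (adjusted p = 0.38). Hps3 overlaps Cp on the opposite strand. Pmepa1 and Chst14 had the nearest profiles, at 0.71 and 0.87. The interstitial macrophage list, 7 genes, summed to 59.7 and 68.1 CPM in untreated, 208 and 576 CPM in LPS Fth1-low and 977, 1541 and 1728 CPM in LPS Fth1-high cells, with Folr2 at 0 in untreated replicate 2 and both Folr2 and Cd163 at 0 in LPS Fth1-low replicate 1. The complement genes C1qa, C1qb and C1qc made up most of the sum after LPS and were called higher in all 3 comparisons. Lyve1, Mrc1 and Cd163 were lower in LPS Fth1-high than in untreated cells, at log2 differences of -3.54, -1.49 and -4.94 (adjusted p = 3.6e-04, 0.047 and 4.6e-04). The part of such cells in the Cp, Slc11a1, Slc11a2 and Tfrc values was not tested.

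Around these transporters stand genes that sense, store and use iron. Of 44 such partner genes 33 were tested, and between the LPS gates 6 were higher in Fth1-high cells and 1 was lower, beside 3.68% and 4.57% of all genes tested. One of the 6 was Fth1, whose reporter set the gate, so its call describes the sort. In LPS Fth1-low against untreated cells 3 were higher and none lower (2.99% and 0.629% of all genes), and in LPS Fth1-high against untreated cells 10, again with Fth1, were higher and 7 lower (12.4% and 11.9%). The medians of the log2 differences were 0.05, -0.17 and 0.18, near the 0.04, -0.05 and 0.03 of all genes tested. Hmox1, whose enzyme breaks down heme and so releases its iron, was higher in LPS Fth1-high than in LPS Fth1-low cells by 2.27 ± 0.24 (adjusted p = 7.0e-04) and than in untreated cells by 2.24 ± 0.24 (adjusted p = 1.5e-04). Bach1, a heme-binding repressor of iron and antioxidant genes, was at 121 CPM in LPS Fth1-high against 322 CPM in LPS Fth1-low cells (-1.42 ± 0.21, adjusted p = 0.0036). Hif1a was higher in both LPS groups than in untreated cells, by 1.53 ± 0.29 in Fth1-low (adjusted p = 0.018) and 2.51 ± 0.28 in Fth1-high cells (adjusted p = 1.9e-04). Lcn2, the siderophore-binding lipocalin, was higher in LPS Fth1-low than in untreated cells by 5.11 ± 0.93 (adjusted p = 0.032). In LPS Fth1-high cells Lcn2 was above untreated cells by 7.25 ± 0.99 (adjusted p = 0.0020). The LPS gates differed in Lcn2 by 2.14 ± 0.76, not called (adjusted p = 0.16). The mitochondrial iron importer Slc25a37 was called in all 3 comparisons. It was higher in LPS Fth1-low than in untreated cells by 1.14 ± 0.21 (adjusted p = 0.017), in LPS Fth1-high than in LPS Fth1-low cells by 1.81 ± 0.20 (adjusted p = 8.2e-04), and in LPS Fth1-high than in untreated cells by 2.95 ± 0.21 (adjusted p = 1.4e-05). The other mitochondrial importer, Slc25a28, was lower in LPS Fth1-high than in untreated cells, at a log2 difference of -1.37 (adjusted p = 6.9e-04).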

How the data were processed

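Polyadenylated RNA of sorted lung cells was sequenced in 7 libraries with a stranded kit. The deposited values are raw read counts per gene symbol, and per the submitters' processing notes the pipeline named DRAGEN, DESeq2 and the mouse build mm10. Versions, annotation, filters and the strand counted were not given in the sources used here, and 0 sample columns were left unused.

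The count table was tested with edgeR 4.0.16 (R 4.3.3): filterByExpr, TMM scaling, 1 robust quasi-likelihood model of the 3 groups (residual df 4) and two-sided tests of the 3 differences. Standard errors are the log2 difference over the square root of F. CPM uses TMM-scaled totals, profiles log2 CPM with a prior count of 2. The procedure was also run on simulated data, whose recovery and false-call rates are not given here. Positions and exon lengths are from GENCODE vM21, promoters from RefSeq. Alternatives were other scalings and filters, DESeq2 1.42.0, limma-voom (limma 3.58.1) with quality weights, 2-group fits, a prior that is not robust, equal depth, a replicate block, omission of ribosomal and mitochondrial genes, and each library left out. Poisson intervals, intervals of summed-count ratios and floors cover counting error only. The 95% intervals of log2 differences come from the quasi-likelihood fit and include the spread between libraries.

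The 10 genes, partner genes, marker lists and motifs were chosen with earlier results of these data known. All 10 genes are named, and partners by smallest adjusted p, at most 4 per comparison. Slc25a28 is named in addition, as the other mitochondrial importer, and Cd163 as a marker. Named partners may also be given for further comparisons.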

Additional observations from a re-analysis of the deposited data

How the results depend on the processing

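Counts of called iron transport genes moved by more than 1.5 times in several settings, among them fits with 1 library left out. Within the Fth1-low gate 2 genes were called, and 1 with a filter of 10 CPM in 2 libraries or with libraries thinned to equal depth, both of which leave Steap4, Slc39a8 and Slc40a1 untested. Leaving out 1 library at a time gave 0 to 3 called genes between the LPS gates, 0 to 3 within the Fth1-low gate and 3 to 6 for LPS Fth1-high against untreated. The labels do not tie a replicate number to a mouse or day, nor say whether the LPS gates came from the same mice. For this reason the numbers were not taken as pairs. Deviations of same-numbered libraries correlated at -0.037 between the Fth1-low groups and at 0.27 and 0.088 between the LPS gates. Between untreated and LPS Fth1-high cells they correlated at 0.10 and 0.29. In a group of 2 libraries the deviations mirror each other, so these values cannot decide whether libraries were paired. With the replicate number as a block, 4, 3 and 5 genes were called in the same order, against 3, 2 and 6 without the block, Trf being added in the first and second and Cp lost in the third. Signs changed for differences that were not called. Within the Fth1-low gate Tfrc was -1.03 at equal depth, and with libraries left out Tfrc ranged from -0.47 to 0.54, Steap3 from -0.013 to 0.36, Slc39a8 from -8.99 to 1.01 and Cp from -8.19 to 2.86. Between the LPS gates Slc39a8 ranged from -1.16 to 7.12 with libraries left out. Against untreated cells, Slc40a1 was -0.044 with limma-voom and -0.12 to 1.69 with libraries left out, and Slc39a8 was -2.65 to 0.25. The extreme values come from fits in which a group holds 0 counts. Where 1 library remained in a group, its spread was assumed to be that of the others. The share of all genes called ranged from 4.92% to 14.6% between the LPS gates, from 1.40% to 6.36% within the Fth1-low gate and from 13.2% to 34.6% for LPS Fth1-high against untreated. In LPS Fth1-low replicate 1, 3 counts equal 5.02 CPM, and Steap4, Slc39a8 and Cp had 2, 0 and 0 counts there, so that these 3 rest mainly on replicate 2 of that group.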
